A study of Mus musculus with 9 samples.

Results

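The mitochondrial genome transcripts were followed in 9 RNA-seq libraries of 5TGM1-Cas9 cells. 5TGM1 is a multiple myeloma line of the mouse, here with a stable transgene for the Cas9 nuclease. The genes were taken by name, as every gene whose symbol begins with mt-, which gave 37 of the 53077 genes in the tables: 13 mRNAs, 2 rRNAs and 22 tRNAs. The 3 populations compared had 3 biological replicates each. All carried Cas9 and received guide RNAs (gRNAs) by lentivirus: a gRNA to Rosa26 (the control gRNA-transduced cells), a gRNA to Slc2a1, or gRNAs to Slc2a1, Slc2a3, Slc2a5, Slc2a6 and Slc2a8 (the Slc2a1/3/5/6/8 gRNA-transduced cells, called five-gene cells below). The Slc2a genes encode glucose and fructose transporters, so the comparisons ask how targeting one or several of them changed the transcriptome. The five-gene cells were first transduced with the vectors for Slc2a3, Slc2a5, Slc2a6 and Slc2a8, sorted on their fluorescent reporters and expanded, and only then received the Slc2a1 gRNA, so the populations differ in handling as well as in target, and the 2 cannot be told apart. None of the populations was a clone, and each could hold edited and unedited cells. The number of mitochondria or of mitochondrial genomes per cell was not analysed here, so fewer genomes and less RNA per genome cannot be told apart.

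The mouse mitochondrial genome is a small circle that is transcribed from both strands into long precursors, from which the tRNAs are cut out and thereby release most of the mRNAs and both rRNAs. Its mRNAs encode core subunits of the respiratory chain: mt-Nd1 to mt-Nd6 and mt-Nd4l belong to complex I, mt-Cytb to complex III, mt-Co1 to mt-Co3 to complex IV, and mt-Atp6 and mt-Atp8 to the ATP synthase. The remaining subunits, and all proteins that copy, transcribe and process the mitochondrial genome, come from nuclear genes.

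The libraries held 21838805 to 30537105 estimated counts over genes, with 18557 to 19813 genes above 0. Replicates of a population differed by more than counting noise, with a lowest chi-square of 18.8 per degree of freedom between any 2 of them. Plasma cell genes were present: Xbp1 stood at 384 to 568 TPM (transcript abundance per length, scaled to the same total in each library) and Sdc1 at 50.4 to 109 TPM, with Tnfrsf17 low at 0.0725 to 1.36 TPM, and no B cell, T cell, macrophage or fibroblast marker exceeded 1.65 TPM. Slc2a1 itself was at 26.9 to 59.5 TPM in the control gRNA-transduced cells, 28.3 to 37.1 TPM in the Slc2a1 gRNA-transduced cells and 19.1 to 31.5 TPM in the five-gene cells. In the five-gene cells Slc2a8 was at 3.05 to 4.12 TPM against 7.44 to 9.77 TPM in the control cells, Slc2a6 at 1.67 to 1.87 TPM against 2.92 to 3.78 TPM, Slc2a3 at 5.20 to 8.34 TPM against 5.10 to 10.2 TPM, and Slc2a5 at 0.508 to 1.42 TPM against 0.104 to 0.396 TPM. The ranges of Slc2a1 and of Slc2a3 overlapped, those of Slc2a6 and Slc2a8 were lower in the five-gene cells and that of Slc2a5 higher, and the level of a transcript does not give the share of cells in which its gene was edited.

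All 37 mitochondrial genes matched the GENCODE M21 annotation (GRCm38) in length. Of the 13 mRNAs, 12 are read from the plus strand of chrM and 1, mt-Nd6 (chrM:13552-14070), from the minus strand. Of the tRNAs, 14 lie on the plus and 8 on the minus strand. The mRNAs are 204 bases (mt-Atp8) to 1824 bases (mt-Nd5) long. Some share bases: mt-Atp8 and mt-Atp6 overlap by 43 bases, mt-Nd4l and mt-Nd4 by 7, and mt-Nd5 and mt-Nd6 by 14 on opposite strands. The cDNA kit does not mark the strand, so reads of mt-Nd6 and of RNA copied from the other strand at the same place cannot be told apart.

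None of the 22 tRNAs had a count in any library. A count of 0 allows a tRNA up to 3 counts, which is 9.82e-06 to 1.37e-05% of a library, for counting error only. The tRNAs are 59 to 75 bases long, shorter than the reads, and the cDNA was primed with oligo-dT. The part of either in the absence was not tested, and the tables do not show whether the tRNAs were present in the cells. The shortest and the longest of them, printed as GENCODE M21 transcripts to show how little sequence a read could meet, lie at chrM:11613-11671 and chrM:2676-2750, both on the plus strand of GRCm38.
mt-Ts2: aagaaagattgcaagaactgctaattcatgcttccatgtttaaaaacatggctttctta
mt-Tl1: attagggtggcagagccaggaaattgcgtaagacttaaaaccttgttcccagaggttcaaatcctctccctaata

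The other 15 genes, the 13 mRNAs and both rRNAs, had counts in every library and all passed the filter on low counts. Before their levels can be read, their nuclear copies have to be counted. Fragments of mitochondrial DNA have been inserted into nuclear chromosomes during evolution, and a counter that assigns reads to transcripts must divide reads between 2 rows that share a sequence. A search of the GENCODE M21 transcripts for stretches of at least 100 bases at 90% identity or more found 16 such nuclear genes. Of these, 7 lie side by side within chr1:24611535-24616197 on the minus strand, and the 5 copies with a mean of 100 or more estimated counts were all among those 7.

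For mt-Co2, the gene of a copper-binding subunit of complex IV, most of the counts on the gene and its copies were assigned to a nuclear copy. Where the sequence is shared, the counts do not show which gene the reads came from. Gm28661 (chr1:24614885-24615565, minus strand) is identical to the first 681 of the 684 bases of mt-Co2 (chrM:7013-7696, plus strand). The ends of both are shown because the stop codon, in capitals, is all that separates them: the mt-Co2 stretch is chrM:7637-7696 and the Gm28661 stretch chr1:24614885-24614941.
mt-Co2: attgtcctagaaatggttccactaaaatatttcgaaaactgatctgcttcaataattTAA
Gm28661: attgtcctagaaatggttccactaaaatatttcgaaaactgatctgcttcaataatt
Estimated counts on mt-Co2 were 27065, 18638 and 18929.9 in the control cells, 23392, 23751 and 15450.0 in the Slc2a1 cells and 24106, 9348 and 8449.8 in the five-gene cells. Those on Gm28661 were 276885, 294725 and 176605, then 191859, 272873 and 178653, then 333902, 144071 and 153728 in the same order. In every library Gm28661 therefore held 89.1 to 94.8% of the counts of mt-Co2 and its copies. Per kilobase, mt-Co2 alone ranked 12th of the 15 genes in the control gRNA-transduced cells, and with its copies added it ranked 2nd.

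**Figure D1:**
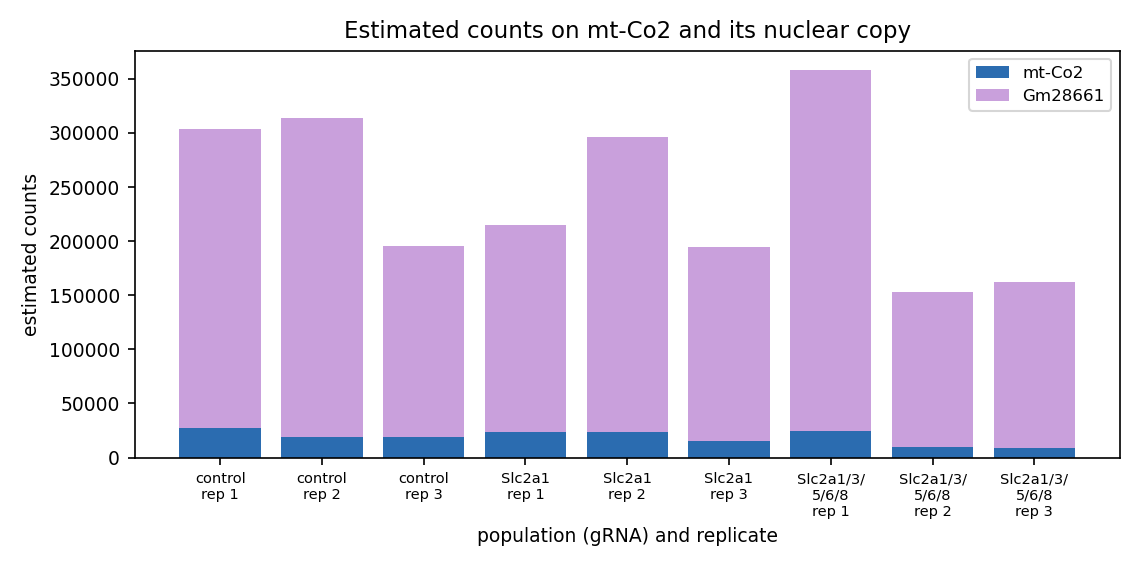
Stacked bars give the estimated counts on mt-Co2 (blue) and on its nuclear copy Gm28661 (violet) in each of the 9 libraries, with population and replicate on the horizontal axis. The copy holds 89.1 to 94.8% of the summed counts in every library, and the total is highest in replicate 1 of the five-gene cells.

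For the other copies the division varied. Gm10925 is identical to 678 bases of mt-Atp6 and held 6882 to 32115 counts, and Gm28437 is identical to 783 bases of mt-Co3 and held 560.5 to 4957 counts. Gm29216 matches bases 1063 to 1545 of mt-Co1 with a single difference, A1066T, and held 12103 to 34258 counts. Gm28438 matches mt-Nd3 with a single difference, T3C, and held 546 to 2049 counts. Positions are counted from 1 at the 5′ end of the mitochondrial transcript, with its base first. The stretches with the differing base in capitals are shown because that base is the single difference within the matched part of each pair; they lie at chrM:6390-6413 and chrM:9459-9481 on the plus strand and at chr1:24616165-24616188 and chr1:24613097-24613119 on the minus strand.
mt-Co1: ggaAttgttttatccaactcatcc
Gm29216: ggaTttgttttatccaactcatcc
mt-Nd3: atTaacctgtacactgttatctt
Gm28438: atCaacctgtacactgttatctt
The remaining 2 copies of this block, Gm10222 (identical to mt-Nd4l over 294 bases) and Gm28439 (identical to mt-Nd4 over 876 bases), had no count in any library. The 16 copies together held 0.719 to 1.64% of a library. Values below are those of the mitochondrial genes as deposited, and values with the copies added are named as such. Adding the copies raised the normalized CPM of mt-Atp6 by 2.92 to 17.4%, of mt-Nd3 by 3.48 to 12.1%, of mt-Co1 by 1.91 to 3.73% and of mt-Co3 by 0.284 to 2.95%, depending on the library.

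The mitochondrial genes took a large and variable part of the libraries. Their share of all estimated counts was 8.01, 8.01 and 4.84% in control replicates 1 to 3, 8.69, 10.5 and 6.57% in the Slc2a1 gRNA-transduced cells and 11.1, 5.84 and 4.91% in the five-gene cells. The means were 6.96 ± 1.83%, 8.60 ± 1.98% and 7.28 ± 3.33% (SD, n = 3 each), and the ranges of the 3 populations overlapped. Replicate 3 had the lowest share in each population, and replicate 1 of the five-gene cells the highest of all 9. With the copies added the shares were 9.16, 9.35 and 5.58% in the control cells, 9.68, 11.9 and 7.47% in the Slc2a1 cells and 12.7, 6.65 and 5.63% in the five-gene cells, in the same order within each population. On the TPM scale, which divides by an effective length, the shares ran from 11.3 to 24.4%.

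**Figure D2:**
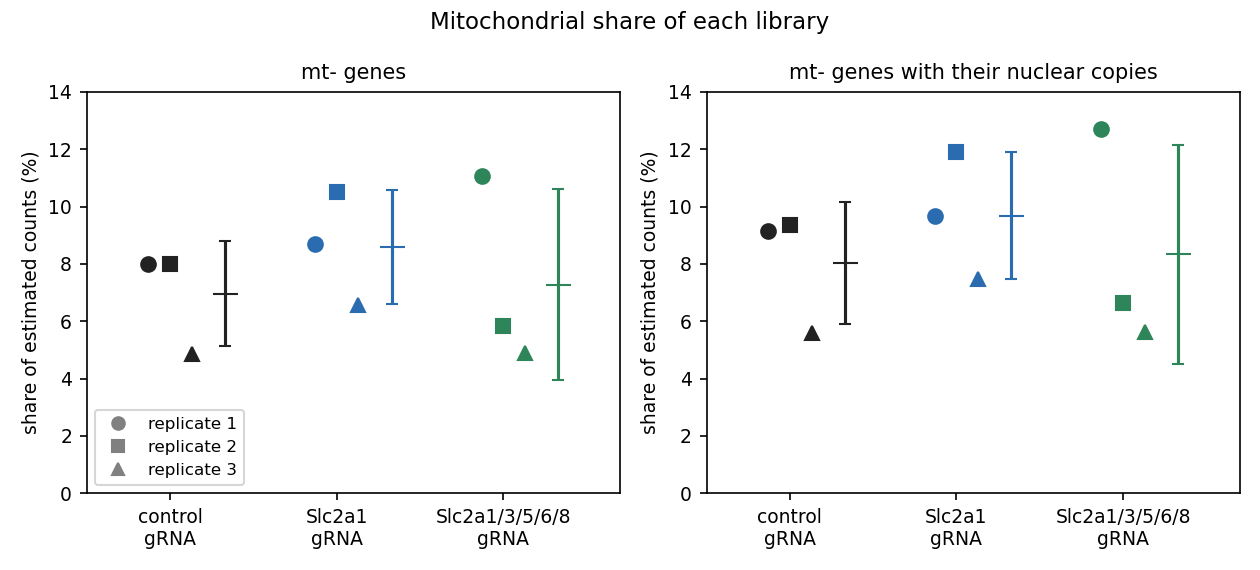
Each point is the mitochondrial share of the estimated counts of one library, in percent, for the mt- genes alone (left) and with their nuclear copies (right); symbols mark the replicate number, and bars give the mean ± SD (n = 3). Triangles, replicate 3, are lowest in each population, at 4.84, 6.57 and 4.91% on the left.

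Within this pool complex IV and ATP synthase mRNAs dominated. mt-Co1, the catalytic subunit of complex IV, held 41.7 ± 1.08% of the mitochondrial counts in the control cells, 36.8 ± 3.19% in the Slc2a1 cells and 36.8 ± 2.25% in the five-gene cells (SD, n = 3 each). Counts scaled to library size and divided by full length in kilobases, on which genes of different length can be compared, put the control order with copies added at mt-Co1 (19406 ± 4955), mt-Co2 (14016 ± 4065), mt-Atp6 (13789 ± 4230.3), mt-Atp8 (8938 ± 3590.3), mt-Co3 (8223 ± 2220.3) and mt-Cytb (5968 ± 1409). Then came the 7 complex I mRNAs, from mt-Nd4 (3499.8 ± 832) to mt-Nd6 (1095 ± 251), and last the rRNAs mt-Rnr2 (424 ± 173) and mt-Rnr1 (274 ± 91.6). The ranges of the 3 control replicates overlapped between neighbours in this order except from mt-Cytb to mt-Nd4 and from mt-Nd6 to mt-Rnr2.

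The TPM values gave another leader. mt-Atp8, whose product is a small subunit of the membrane part of the ATP synthase, stood at 68928 ± 23929 TPM in the control cells and so above mt-Co1 at 19260.1 ± 3728 TPM. The effective length used for mt-Atp8 in the deposited tables was 20.7 to 21.9 bases against a length of 204 bases. By counts per kilobase of full length it was 3rd as deposited and 4th with the copies added. The rank of mt-Atp8 among the 15 genes therefore differs between the scales. Other ranks moved as well. On TPM mt-Nd4l was 4th (11633 ± 1653 TPM) and mt-Nd3 6th (7224 ± 1778 TPM), both above mt-Cytb (6712 ± 1229 TPM). By counts per kilobase with the copies added, mt-Nd4l was 10th and mt-Nd3 11th. The order above, with all complex I mRNAs below mt-Cytb, thus does not hold on TPM.

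The rRNAs, which make up the RNA core of the mitochondrial ribosome, were a minor part of these oligo-dT primed libraries. Together they held 1.55, 1.27 and 1.11% of the mitochondrial counts in the control cells, 1.77, 1.26 and 1.05% in the Slc2a1 cells and 1.05, 0.865 and 1.11% in the five-gene cells. The Slc2a1 range overlapped both others, while every control value lay narrowly above every five-gene value (1.114 and 1.105% at the nearest). In both the control and the Slc2a1 cells replicate 1 was highest and replicate 3 lowest. On the TPM scale the rRNA shares were 0.549, 0.429 and 0.438%, then 0.604, 0.443 and 0.377%, then 0.320, 0.291 and 0.342% in the same order, and there the five-gene values lay below all others. The part of the priming in these shares was not tested.

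The values of single genes are normalized CPM, that is estimated counts scaled to a common library size with the TMM factors of edgeR, and are given for replicates 1, 2 and 3 of each population in turn. The small-subunit rRNA mt-Rnr1 (chrM:70-1024) stood at 313, 302 and 151 in the control cells, 375, 332 and 193 in the Slc2a1 cells and 272, 145 and 146 in the five-gene cells. The large-subunit rRNA mt-Rnr2 (chrM:1094-2675) stood at 902, 708 and 353 in the control cells, 1248, 1063 and 491 in the Slc2a1 cells and 959.6, 344 and 387 in the five-gene cells. For both, replicate 3 of the control and Slc2a1 cells and replicates 2 and 3 of the five-gene cells were low, and the ranges of the populations overlapped.

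Complex I, the NADH dehydrogenase, has 7 mitochondrially encoded subunits, all of them in the membrane arm. mt-Nd1 (chrM:2751-3707) was at 3749, 3741 and 2048 for the control gRNA, 6312, 6429 and 3399 for the Slc2a1 gRNA and 5850.3, 2753 and 3303 for the five-gene gRNAs. mt-Nd2 (chrM:3914-4951) was at 3198, 3076 and 1706 for the control gRNA, 4949.9, 4996 and 2841 for the Slc2a1 gRNA and 5208, 2494 and 2637 for the five-gene gRNAs. In both, replicates 1 and 2 of the Slc2a1 cells and replicate 1 of the five-gene cells were the 3 highest values, while replicate 3 of the Slc2a1 cells fell within the control range. mt-Nd3 (chrM:9459-9806) read 592, 816 and 390.3 in the control cells, 905, 1118 and 717 in the Slc2a1 cells and 1443, 609.6 and 904 in the five-gene cells. Here five-gene replicate 3 lay between replicates 2 and 1. mt-Nd4l (chrM:9877-10173) read 736, 671 and 464 in the control cells, 1026, 1124 and 722 in the Slc2a1 cells and 1252, 671 and 609 in the five-gene cells, and mt-Nd4 (chrM:10167-11544) read 5613, 5159 and 3301 in the control cells, 7490.5, 8162 and 5074 in the Slc2a1 cells and 9307, 4822 and 3844 in the five-gene cells. For this overlapping pair, replicate 3 of the control cells was the lowest of the 9 libraries.

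The remaining pair of complex I genes lie tail to tail on opposite strands. mt-Nd5 (chrM:11742-13565) was at 3206, 2476 and 2015 for the control gRNA, 4450.1, 4170.4 and 2919 for the Slc2a1 gRNA and 3819, 2322 and 1843 for the five-gene gRNAs. mt-Nd6, the only mRNA of the minus strand, was at 701, 519 and 435 for the control gRNA, 1016, 877 and 663 for the Slc2a1 gRNA and 783, 474 and 359 for the five-gene gRNAs. In mt-Nd6 the Slc2a1 values exceeded the control value of the same replicate number every time, but Slc2a1 replicate 3 lay below control replicate 1, so the ranges overlapped. The five-gene replicates 2 and 3 lay below every Slc2a1 value of mt-Nd6 and of mt-Nd5, and five-gene replicate 1 lay within the Slc2a1 range of both.

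mt-Cytb (chrM:14145-15288), the cytochrome b of complex III, stood at 7905, 7345 and 4675 in the control cells, 10059, 11646 and 7290.5 in the Slc2a1 cells and 14429, 6679 and 5640.0 in the five-gene cells. Five-gene replicate 1 was the highest library. Of complex IV, mt-Co1 (chrM:5328-6872) stood at 31762, 33574 and 19132 in the control cells, 30452, 43395 and 24889 in the Slc2a1 cells and 44001, 21812 and 16487 in the five-gene cells, with five-gene replicate 1 and Slc2a1 replicate 2 high and five-gene replicate 3 lowest. mt-Co2 without its copies stood at 945, 679 and 579 in the control cells, 1125, 1083 and 633 in the Slc2a1 cells and 1052, 414 and 299 in the five-gene cells, and with them at 10616, 11419 and 5984 in the control cells, 10354, 13529 and 7954 in the Slc2a1 cells and 15621, 6799 and 5747 in the five-gene cells. mt-Co3 (chrM:8607-9390), a structural core subunit, stood at 7062, 7442 and 4043 in the control cells, 8772, 10067 and 5693 in the Slc2a1 cells and 9535, 4449.7 and 4387 in the five-gene cells. The lowest of the 9 values was five-gene replicate 3 for mt-Co2 without copies and control replicate 3 for mt-Co3.

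Both ATP synthase mRNAs come from one bicistronic transcript. mt-Atp8 (chrM:7766-7969) was at 1993, 2405 and 943 for the control gRNA, 2179, 2575 and 1517 for the Slc2a1 gRNA and 3523, 1587 and 1416 for the five-gene gRNAs. mt-Atp6 (chrM:7927-8607), which encodes the subunit that forms the proton path, was at 9902, 10420.2 and 5017 for the control gRNA, 11388, 13906 and 8119 for the Slc2a1 gRNA and 15946, 6985 and 5900.3 for the five-gene gRNAs. In both genes five-gene replicate 1 was highest and control replicate 3 lowest.

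**Figure D3:**
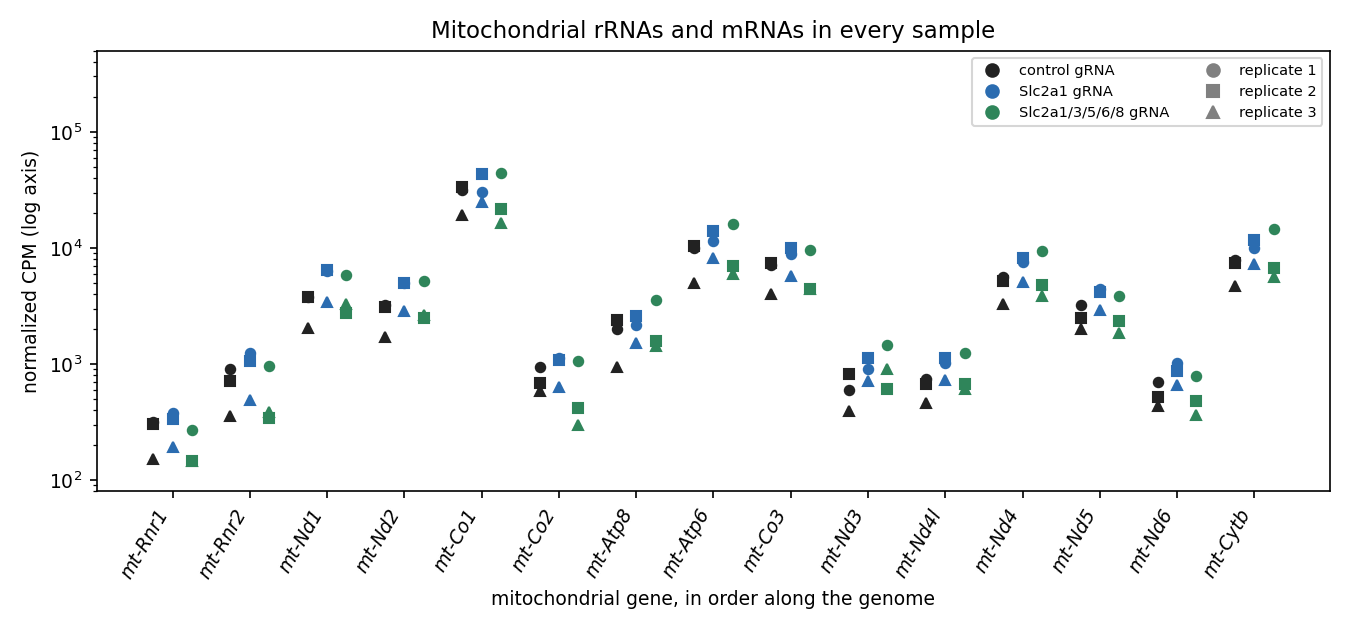
Normalized CPM (log axis) of the 15 counted genes in their order along the genome; colours give the population and symbols the replicate number. In every gene replicate 3 (triangles) is the lowest control and the lowest Slc2a1 value, and the populations overlap.

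Replicate number took more of the variation of these genes than of genes at large. When the sum of squares of log2(CPM + 1) over the 9 libraries was split, population took a median of 29.0% over the 15 genes, replicate number 54.0% and the remainder 18.3%. Over all 13834 genes tested the medians were 43.0%, 17.6% and 31.5%, and over the 527 genes at or above the level of the lowest of the 15 they were 50.1%, 14.5% and 28.1%. The SD within a population had a median of 0.53 for the 15 genes, on the log2 scale, against 0.19 for all genes and 0.15 for those 527. On log2(TPM + 1) population took 36.3% and replicate number 50.1% for the 15 genes, against 32.4% and 24.7% for all genes, and the SD within a population was 0.35 against 0.23. The order of the replicate shares was thus the same on both scales, while the population share of the 15 genes was below that of all genes on CPM and above it on TPM. The split is a description and was not tested.

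The share taken by population differed among the genes. On log2(CPM + 1) it was highest for mt-Nd6 at 45.8%, mt-Nd5 at 39.9% and mt-Nd3 at 36.7%, and lowest for mt-Atp8 at 6.61%, mt-Co1 at 9.64% and mt-Atp6 at 12.4%. The ratio of the mean square between populations to that within them ran from 0.212 for mt-Atp8 to 2.53 for mt-Nd6, with a median of 1.23, against a median of 2.26 over all genes, and on log2(TPM + 1) this order was the other way, with medians of 1.71 and 1.43. With the nuclear copies added, the population share of mt-Co2 went from 31.0% to 6.22%.

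**Figure D4:**
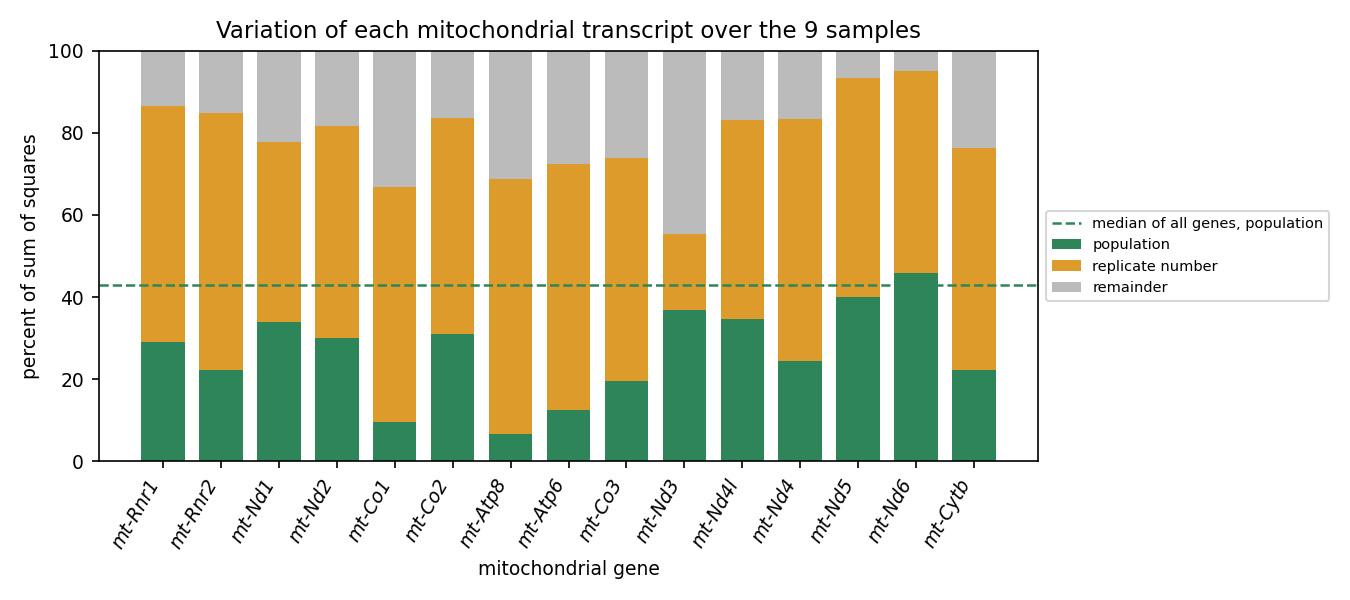
Stacked bars split the sum of squares of log2(CPM + 1) of each gene over the 9 libraries into population, replicate number and remainder, in percent; the dashed line marks the median population share of all genes tested, 43.0%. On this scale only mt-Nd6, at 45.8%, exceeds that line, while on log2(TPM + 1), not drawn, 8 of the 15 genes exceed the all-gene median of 32.4%.

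The genes moved together from library to library. Replicate 3 was the lowest of its population for 15 of 15 genes in the control cells, for 15 of 15 in the Slc2a1 cells and for 10 of 15 in the five-gene cells, where replicate 2 was lowest for the other 5 and replicate 1 highest for all 15. Replicate 3 was lowest in all 3 populations for 10 of the 15, and for 6.40% of all genes tested. These 15 transcripts derive from shared precursors in the same libraries and are not independent of one another. Across the 9 libraries the coefficient of variation of normalized CPM had a median of 36.8% (range 31.4 to 47.4%), while that of each gene's share of the mitochondrial counts had a median of 13.4% (range 5.43 to 29.1%).

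The comparison of Slc2a1 gRNA-transduced with control cells gave higher fitted levels for all 15 genes, and 3 passed the test. These were mt-Nd6 (log2 fold change 0.64, SE 0.13, adjusted p = 0.0207), mt-Nd5 (0.59, SE 0.14, 0.0315) and mt-Nd4l (0.63, SE 0.16, 0.0477), by edgeR's quasi-likelihood test with replicate number as a block and Benjamini-Hochberg adjustment over all genes. The background is 4.64% of all genes called in this comparison, 2.25% as higher and 2.39% as lower. All 3 rose, and all are complex I mRNAs, as are mt-Nd1, mt-Nd2, mt-Nd3 and mt-Nd4, which did not pass. The largest fitted differences did not pass: mt-Nd1 had 0.76 (SE 0.21, adjusted p = 0.0561) and mt-Nd2 0.69 (SE 0.19, adjusted p = 0.0562). The smallest were mt-Rnr1 at 0.24 and mt-Co1 at 0.25, with adjusted p = 0.420 and 0.544, and the median of the 15 was 0.57 against -0.00 for all genes tested.

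Same-numbered replicates showed the same direction. In log2 units, the Slc2a1 minus control difference of mt-Nd6 was 0.53, 0.76 and 0.61 for numbers 1, 2 and 3, and that of mt-Nd1 was 0.75, 0.78 and 0.73. The difference was positive for all 3 numbers in 14 of the 15 genes and negative in none, patterns held by 25.3% and 25.1% of all genes, the exception being mt-Co1 with -0.06, 0.37 and 0.38. No gene had separate ranges in the 2 populations (13.2% of all genes did with the Slc2a1 cells higher and 13% with them lower). The 3 calls rest on the block: without it none of the 15 passed. They also depend on single libraries, as did the calls over all genes, with no gene passing without control replicate 1, 2 or 3 or without Slc2a1 replicate 2, 1 passing without Slc2a1 replicate 1 or 3, and 7, 10 and 4 passing without five-gene replicate 1, 2 and 3. The five-gene libraries are in neither group of this comparison, leaving one out also changed the number of genes tested (14308 to 14531), and the cause was not tested. Over all genes the share called was 0.507, 0.0773 and 0.316% without control replicate 1, 2 and 3, 0.441, 0.167 and 6.48% without Slc2a1 replicate 1, 2 and 3, and 8.88, 6.08 and 6.0% without five-gene replicate 1, 2 and 3. Without the block it was 3.86%.

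In the five-gene cells none of the 15 genes differed from the control cells past the threshold, where 15.9% of all genes did, 8.49% as higher and 7.44% as lower. By edgeR 4 of the 15 had an unadjusted p under 0.05, as did 31.4% of all genes, and DESeq2 called 2, where it called 18.6% of all genes. Fitted log2 fold changes ran from -0.48 for mt-Co2 (SE 0.21, adjusted p = 0.144) to 0.75 for mt-Nd3 (SE 0.27, adjusted p = 0.0742), with 9 of 15 above 0 and a median of 0.15. With its copies added, mt-Co2 moved to -0.04. The replicates went apart: for mt-Nd3 the differences were 1.28, -0.42 and 1.21 for numbers 1, 2 and 3, and for mt-Atp8 they were 0.82, -0.60 and 0.59. Only mt-Nd4l was higher for all 3 numbers, with 0.77, 0.00 and 0.39, and only mt-Rnr1 lower, with -0.20, -1.05 and -0.05, patterns that 25.9% and 26.2% of all genes held. Ranges overlapped for every gene, where 17% of all genes had higher and 17.2% lower separate ranges. Without control replicate 2, 1 of the 15 passed, with 6.99% of all genes called. Without five-gene replicate 2, 7 of the 15 passed as higher, with 12.9% of all genes called, and without five-gene replicate 1, 2 passed as lower, with 16.6%, so the count of 0 held only with these libraries present.

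Between the 2 transporter-targeted populations, 13 of the 15 fitted differences were below 0, five-gene minus Slc2a1, with a median of -0.34 against 0.00 for all genes. Of these, 2 neighbours on opposite strands passed as lower in the five-gene cells: mt-Nd6 (-0.71, SE 0.13, adjusted p = 0.0154) and mt-Nd5 (-0.57, SE 0.14, adjusted p = 0.0497), where 2.31% of all genes were called and 0.947% as lower. This comparison shares its Slc2a1 libraries with the one against the control cells, so the pair of results is not independent. Same-numbered replicates of these 2 populations did not deviate together, with correlations of -0.107, -0.034 and -0.042 over all genes tested. mt-Co2 had the largest fitted difference, -0.84 (SE 0.21, adjusted p = 0.0638), and with its copies added -0.26. mt-Rnr1 (-0.66, adjusted p = 0.0629) and mt-Rnr2 (-0.75, adjusted p = 0.0900) did not pass. The difference was negative for all 3 numbers in 6 genes (mt-Rnr1, mt-Rnr2, mt-Nd1, mt-Co2, mt-Nd5 and mt-Nd6), as in 17.2% of all genes, and positive in none (17.4% of all genes). Ranges overlapped for every gene, where 10.6% of all genes had higher and 10.3% lower separate ranges. Without the block neither mt-Nd5 nor mt-Nd6 passed, and the count was 9 without five-gene replicate 1, 3 without Slc2a1 replicate 1, 1 without control replicate 1, 2 or 3 or five-gene replicate 3, and 0 without Slc2a1 replicate 2 or 3 or five-gene replicate 2. Over all genes the share called was 0.932% without the block, 1.56, 1.29 and 1.07% without control replicate 1, 2 and 3, 1.59, 0.291 and 0.886% without Slc2a1 replicate 1, 2 and 3, and 2.64, 0.929 and 2.32% without five-gene replicate 1, 2 and 3.

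**Figure D5:**
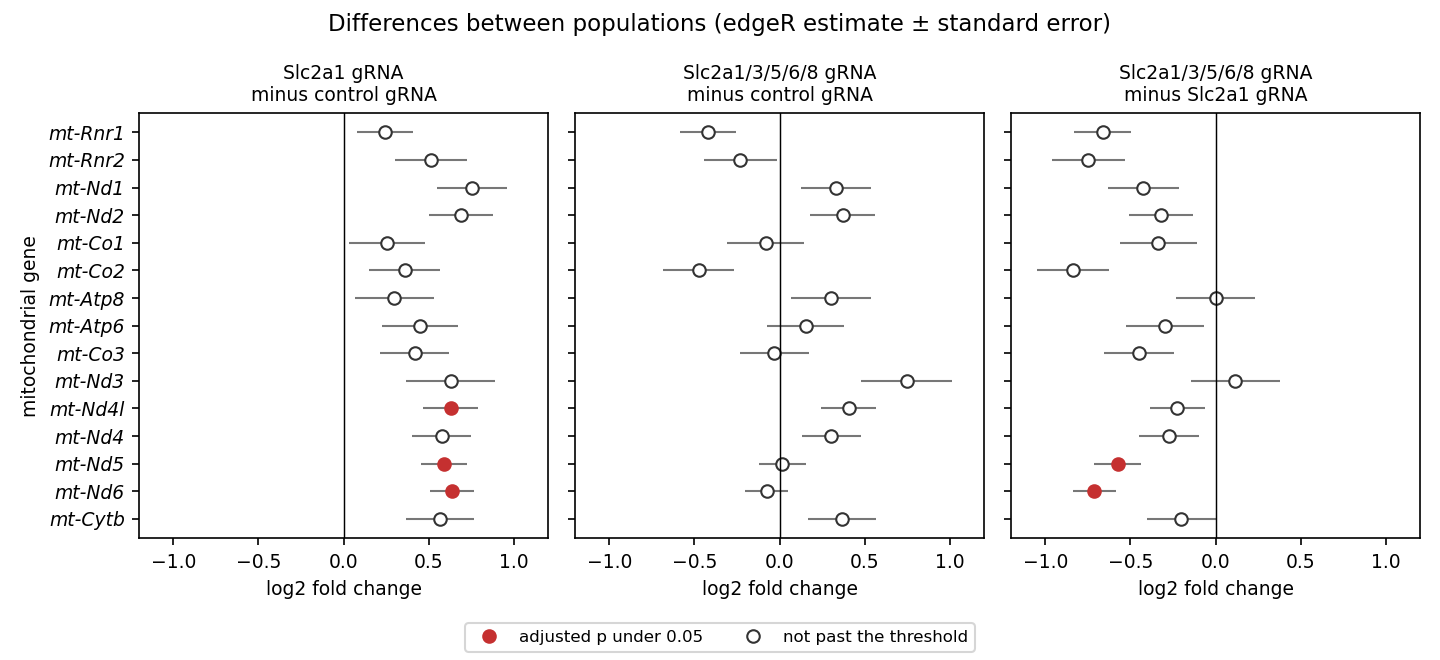
Fitted log2 fold changes ± SE of the 15 genes in the 3 comparisons, by edgeR with replicate number as a block; filled red points have an adjusted p under 0.05. The 3 red points on the left are mt-Nd4l, mt-Nd5 and mt-Nd6, and the 2 on the right are mt-Nd5 and mt-Nd6.

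Shares within the mitochondrial pool, which do not depend on how libraries were scaled, were compared next as a description. mt-Nd6 made up 0.906, 0.663 and 0.972% of the mitochondrial mRNA counts in the control cells, 1.13, 0.800 and 1.03% in the Slc2a1 cells and 0.674, 0.846 and 0.755% in the five-gene cells, and these ranges overlapped. On the TPM scale they were 1.47, 0.985 and 1.73%, then 1.82, 1.30 and 1.68%, then 0.964, 1.29 and 0.975%, where the Slc2a1 values lay above all five-gene values (1.30 and 1.29% at the nearest) and the control range overlapped both. With the copies included, the control values lay apart from those of both other populations for 6 of the 15 genes, above them for mt-Co1 and below them for mt-Nd1, mt-Nd2, mt-Nd4l, mt-Nd4 and mt-Cytb. Without the copies this held for the same genes except mt-Nd4l. No share of this kind exists for genes outside the pool, so there is no background for the count. The share of mt-Co1, copies included, was 36.7, 37.6 and 37.9 in the control cells, 30.4, 35.3 and 34.6 in the Slc2a1 cells and 33.5, 34.8 and 30.6 in the five-gene cells, in percent. All control values lay above all others. For mt-Cytb the shares were 8.80, 7.93 and 8.96 in the control cells, 9.84, 9.29 and 9.84 in the Slc2a1 cells and 10.7, 10.4 and 10.2 in the five-gene cells, so the control cells were lowest, the Slc2a1 cells intermediate and the five-gene cells highest, with no overlap. mt-Nd4 followed with 6.25, 5.57 and 6.33 in the control cells, 7.33, 6.51 and 6.85 in the Slc2a1 cells and 6.91, 7.50 and 6.96 in the five-gene cells, where the control values were below those of both other populations. Shares add up to a fixed whole, so a lower share of mt-Co1 raises others, and the 3 genes given by library were picked after their values were seen.

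A chosen list of 40 nuclear genes, called the machinery list, was read next. Most of them transcribe or copy mitochondrial DNA or process and stabilise its RNA. The list also holds regulators of nuclear genes, namely Ppargc1a, Ppargc1b, Pprc1, Nrf1, Gabpa and Esrra, so its counts are not of genes acting on mitochondrial DNA alone. Of the 40 genes, 39 were tested. In the Slc2a1 cells 1 was higher and 1 lower than in the control cells: Esrra, a nuclear receptor that drives genes of oxidative metabolism (0.49, SE 0.12, adjusted p = 0.0327 by edgeR), and Primpol, a primase-polymerase of mitochondria and nucleus (-0.85, SE 0.19, adjusted p = 0.0272). This is 5.13% of the list against 4.64% of all genes. Neither passed without control replicate 1, 2 or 3 or without Slc2a1 replicate 1 or 2, where 0 of the 39 were called. Of all genes 0.507, 0.0773, 0.316, 0.441 and 0.167% were called in these fits, so the 0 says nothing of this list in particular. The count was 7 without Slc2a1 replicate 3, 7 without five-gene replicate 1, 6 by DESeq2 and 12 with only the 2 groups fitted. In that order this is 17.9, 17.9, 15.4 and 30.8% of the list, against 6.48, 8.88, 9.07 and 16.7% of all genes. In the five-gene cells 14 were higher and 1, Primpol again, lower (-0.71, adjusted p = 0.0220), which is 38.5% of the list against 15.9% of all genes, and the median log2 fold change was 0.31 against 0.01. The 5 with the smallest adjusted p were Esrra at 0.77 (adjusted p = 0.00156), the RNA-binding Fastkd2 at 0.61 (0.00585), the coactivator Ppargc1b at 0.82 (0.00796), the mitochondrial DNA helicase Twnk at 0.56 (0.00878) and the RNA helicase Supv3l1 at 0.49 (0.0153). In normalized CPM, Esrra went from 50.3 ± 3.55 in the control cells to 85.9 ± 13.4 in the five-gene cells (SD, n = 3 each).

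Of the core transcription genes, Polrmt and Tfam were called in the five-gene cells and Tfb2m was not. Polrmt, the mitochondrial RNA polymerase, had 0.33 (adjusted p = 0.0475), Tfam, which packages the genome and activates its promoters, 0.41 (0.0339), and Tfb2m, the initiation factor, -0.03 (0.934), the last of them named after its value was seen. Lrpprc, which stabilises mitochondrial mRNAs, was called at 0.52 (0.0323). Polg, the DNA polymerase, did not pass at -0.10 (0.512). In the Slc2a1 cells none of these 5 passed, with Tfb2m at 0.24 (0.436), Lrpprc at 0.52 (0.0642), Tfam at 0.22 (0.297), Polrmt at 0.14 (0.443) and Polg at 0.05 (0.799). Tested directly, none of the 39 passed between the five-gene and Slc2a1 cells by edgeR, where 2.31% of all genes did, and 6 had an unadjusted p under 0.05, as did 19.1% of all genes. DESeq2 called 2, which is 5.13% of the list against 5.48% of all genes. All of these counts are near the background. The count of 15 in the five-gene cells fell to 2, 7 and 3 without control replicate 1, 2 and 3, to 2 without five-gene replicate 3, and to 1 by limma on TPM. These counts are 5.13, 17.9, 7.69, 5.13 and 2.56% of the list, against 4.45, 6.99, 5.16, 6.13 and 3.13% of all genes in the same fits, so without control replicate 1 or five-gene replicate 3, and by limma, the list was near the background.

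The nuclear-encoded subunits of the same 4 complexes that were tested numbered 80. Against the control cells, the Slc2a1 cells had 2 of 40 complex I genes, 1 of 14 complex IV genes and 1 of 17 ATP synthase genes called higher and 0 of 9 complex III genes called, with medians of 0.15, 0.18, 0.19 and 0.22. In the five-gene cells 1 of 40 complex I and 1 of 9 complex III genes were lower and none of the other 2 complexes was called, with medians from -0.03 to 0.06. Between the five-gene and Slc2a1 cells 1 of 9 complex III, 2 of 14 complex IV and 1 of 17 ATP synthase genes were lower and no complex I gene was called, with medians from -0.13 to -0.21. Together 4, 2 and 4 of the 80 were called in the 3 comparisons, which is 5.0, 2.5 and 5.0% against 4.64, 15.9 and 2.31% of all genes. The direction between five-gene and control cells rested on single libraries: without five-gene replicate 2, 7 were called and all were higher, without five-gene replicate 1, 5 were called and all were lower, and without control replicate 1, 2 or 3 or five-gene replicate 3 none was called. The 7 and the 5 are 8.75 and 6.25% of the 80, below the 12.9 and 16.6% of all genes called in the same fits. Where none was called, 4.45, 6.99, 5.16 and 6.13% of all genes were. Between Slc2a1 and control cells 1 passed without control replicate 1 and none without control replicate 2 or 3 or Slc2a1 replicate 1 or 2. The 1 is 1.25% of the 80 against 0.507% of all genes, and in the other fits 0.0773, 0.316, 0.441 and 0.167% of all genes passed. Between five-gene and Slc2a1 cells none passed without Slc2a1 replicate 2 or 3 or five-gene replicate 2, where 0.291, 0.886 and 0.929% of all genes did. Zeros at such shares say nothing of these subunits in particular.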

How the data were processed

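RNA was reverse transcribed from oligo-dT with SMART-seq v4 and sequenced as paired reads. The authors quantified transcripts with Salmon 1.5.1 per the labels and deposited, for each library, estimated counts per gene together with TPM values. The annotation and options used are not given in the sources used here. Lengths of all 37 mitochondrial genes equalled GENCODE M21, from which coordinates (GRCm38) and sequences were taken. Of the members' values above 0, 55.6% were not whole numbers (tolerance 0.001), so counts were rounded.

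The main test was edgeR 4.0.16 (quasi-likelihood, TMM, filterByExpr defaults) in R 4.3.3 over all 9 libraries, with replicate number as a block after the paired test the study states, Benjamini-Hochberg adjustment over 13834 genes and a threshold of 0.05. On data simulated for the five-gene and control comparison, 191 of 200 genes changed 2-fold were recovered among 13547 tested, with 7 others called. The simulation set the same dispersion for every gene and no effect of replicate number, and it changed only genes above a minimum expected count. The 15 mitochondrial genes had a median SD within a population of 0.53 (log2 scale) against 0.19 for all genes. The recovery therefore does not tell how often a change in them would be found. Deviations of same-numbered replicates correlated at 0.149, 0.111 and 0.215 between control and Slc2a1 cells, over 0.1 in each pair. They correlated at 0.162, -0.065 and 0.127 between control and five-gene cells and at -0.107, -0.034 and -0.042 between Slc2a1 and five-gene cells, so the numbers did not pair the samples by this criterion there, and the block was kept as the study's design. Nothing says that same-numbered cultures shared a day. P-values measure the spread between these cultures.

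Nuclear copies were found with BLAST 2.17.0. Alternatives used DESeq2 1.42.0 and limma 3.58.1. Named were the 13 mRNAs, both rRNAs, the 5 machinery genes of smallest adjusted p among those called in each comparison, and Polrmt, Tfam, Polg and Lrpprc. The members and lists were chosen with earlier results of these data known. Permutation tests of the shares had been set but are not given, since shares are sums over members so chosen.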

Additional observations from a re-analysis of the deposited data

How the results depend on the processing

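The calls among the mitochondrial genes depended on the processing, and the cause was not tested. Of the 15 genes, 3 were called between Slc2a1 and control cells. This count was 0 with no replicate block, 5 by DESeq2, 12 with only the 2 groups fitted, 11 when no low counts were removed (below, without the filter), 0 by limma on log2(TPM + 1) or log2(TPM + 0.1), 0 when a 2-fold change was also asked for, and 0 to 10 when a library was left out. Between five-gene and control cells the 0 became 2 by DESeq2, 6 without the filter and 0 to 7 when a library was left out. Between five-gene and Slc2a1 cells the 2 became 0 with no replicate block, 4 by DESeq2, 1 with library sizes from nuclear genes alone, 7 without the filter, 0 with only 2 groups, 0 by limma with either pseudocount, 0 with a 2-fold change and 0 to 9 when a library was left out. The counts of the nuclear lists were put through the same alternatives after they had been seen. For the machinery list, the 2 between Slc2a1 and control cells became 6 by DESeq2, 1 by total counts, 7 without the filter, 4 with at least 10 counts in every library, 12 with 2 groups, 0 by limma with either pseudocount and 0 to 7 without a library. For that list the 15 between five-gene and control cells became 1 by limma with either pseudocount and 2 to 16 without a library, and the 0 between five-gene and Slc2a1 cells became 2 by DESeq2, 3 without the filter and 0 to 2 without a library. Nuclear-encoded subunits of the 4 complexes together gave 4 calls between Slc2a1 and control cells, which became 2 with no replicate block, 8 by DESeq2, 1 by total counts, 8 without the filter, 7 with at least 10 counts, 14 with 2 groups, 0 by limma with either pseudocount and 0 to 8 without a library. Their 2 between five-gene and control cells became 1 with no replicate block, 5 by DESeq2, 4 without the filter, 1 by limma with either pseudocount and 0 to 7 without a library, where the 7, without five-gene replicate 2, were all higher and the 2 had been lower. Their 4 between five-gene and Slc2a1 cells became 2 with no replicate block, 10 by DESeq2, 10 without the filter, 2 with 2 groups, 0 by limma with either pseudocount and 0 to 6 without a library. The share of all genes called moved as well, and each count is read against it. Between Slc2a1 and control cells it was 4.64%, and 3.86% with no replicate block, 9.07% by DESeq2, 5.33% by total counts, 5.47% without the filter, 6.94% with at least 10 counts, 16.7% with 2 groups, 0 and 0.376% by limma with a pseudocount of 1 and 0.1, and 0.0773 to 8.88% without a library. A limma count of 0 with a pseudocount of 1 therefore says nothing of these genes in particular. Between five-gene and control cells it was 15.9%, and 13.6% with no replicate block, 18.6% by DESeq2, 10.4% without the filter, 3.13 and 3.34% by limma and 4.45 to 17.7% without a library. Between five-gene and Slc2a1 cells it was 2.31%, and 0.932% with no replicate block, 5.48% by DESeq2, 2.28% with nuclear library sizes, 3.68% without the filter, 0.883% with 2 groups, 0.224 and 0.231% by limma and 0.291 to 2.64% without a library. On the TPM scale the mt-Nd6 share of mitochondrial mRNA differed by -0.32 percentage points between five-gene and control cells, against -0.09 on counts, and by -0.53 against -0.23 between five-gene and Slc2a1 cells.

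Some fitted differences changed sign. None of these had been called, and not all were close to 0 (mt-Atp6 between five-gene and Slc2a1 cells was -0.30). mt-Atp8 between five-gene and Slc2a1 cells, 0.00, became -0.00124 by DESeq2, -0.000794 with nuclear library sizes, -0.00876 with at least 10 counts and -0.0483 with 2 groups. mt-Nd5 between five-gene and control cells, 0.02, became -0.036 by total counts and -0.046 by limma with either pseudocount. When a library was left out, the five-gene minus control values ranged from -0.23 to 0.48 for mt-Atp6, -0.050 to 0.66 for mt-Atp8, -0.49 to 0.20 for mt-Co1, -0.32 to 0.29 for mt-Co3, -0.14 to 0.11 for mt-Nd5, -0.23 to 0.023 for mt-Nd6 and -0.43 to 0.13 for mt-Rnr2. The five-gene minus Slc2a1 values ranged from -0.66 to 0.028 for mt-Atp6, -0.33 to 0.35 for mt-Atp8, -0.53 to 0.063 for mt-Cytb, -0.20 to 0.56 for mt-Nd3 and -0.46 to 0.00086 for mt-Nd4l. Total counts without TMM moved the median of all genes to -0.095 between Slc2a1 and control cells. What depth limits among the 15 counted genes was not tested, and for the tRNAs a count of 0 allows up to 3 counts in a library.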
